A study of Mus musculus with 24 samples.

Results

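Cultured lymph node B cells without PU.1 (PU.1 cKO) were set against cells that also lacked SpiB (PU.1 SpiB DKO, DKO below), so that the groups differed by design in SpiB. The cells had been activated over 48 h by CD40L (50 ng/ml) plus IL-4 (10 ng/ml), signals that stand in for T cell help, and were sorted as CD3- B220+ CD138- before RNA was taken. PU.1 cKO cells were Spi1fl/fl Cd23T/+ and PU.1 SpiB DKO cells were Spi1fl/fl Cd23T/+ Spib-/-, on a C57BL/6 background, from mice of 6 to 20 weeks of age. Both carried floxed alleles of Spi1, the gene of PU.1, and the Cd23T BAC transgene, in which regulatory sequence of Cd23 (Fcer2a) drives Cre from the transitional B cell stage, whereas the Spib allele was null in all cells. Each group had 2 libraries. The control (Cd23T/+) and SpiB KO (Spi1fl/fl Cd23+/+ Spib-/-, without Cre) cultures, with 2 libraries each, and the same genotypes as naive cells or after LPS+IL-4, were used for reference. The comparison covered each gene that reached 0.5 CPM in 2 or more of the 4 libraries, 12251 of the 27179 genes counted.

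PU.1 and SpiB are ETS family transcription factors with closely related DNA-binding domains that recognise purine-rich sites around a GGAA core. SpiB is expressed mainly in lymphoid cells and PU.1 in both lymphoid and myeloid cells, and in B cells they are known to act on overlapping target genes, among them genes of B cell receptor (BCR) signalling. In the comparison of DKO with PU.1 cKO cells, the ETS factor most closely related to PU.1 is removed as well. Other ETS family genes stayed expressed, such as Ets1 at 1162 and 1030 CPM in PU.1 cKO and 997 and 841 CPM in DKO.

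The 4 libraries held 9828967 and 61640683 counts (PU.1 cKO) and 9846606 and 10118485 counts (DKO), so the second PU.1 cKO library was sequenced far deeper than the others. The ribosomal precursor Rn45s took 6.64% of the counts of DKO replicate 1 and 0.464 to 1.18% of the other 3 libraries. Differential expression (DE) meant a Benjamini-Hochberg adjusted p under 0.15 by edgeR's quasi-likelihood test and a fold change over 1.5. Levels are CPM scaled by TMM factors, which do not correct for gene length. Bulk RNA cannot tell fewer cells of a type from less RNA per cell. The sources call the duplicates biological, without naming the animals behind each library.

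Spib, the deleted gene, was checked first and fell. Its level was 469.8 and 457.0 CPM in PU.1 cKO against 11.3 and 9.05 CPM in DKO libraries, a log2 fold change of -5.51 (SE 0.26, adjusted p = 1.8e-06 by edgeR). The SpiB KO libraries held 37.0 and 24.4 CPM. Spi1 transcript stood at 46.9 and 35.1 CPM in PU.1 cKO against 32.5 and 25.6 CPM in DKO, both below the controls at 84.9 and 108 CPM. The difference between the compared groups was -0.49 (SE 0.21, adjusted p = 0.34). Counts over the whole gene do not separate transcripts with and without the deleted exon, so they do not measure deletion. From read coverage, the study reports full excision of the floxed exon in this culture, with or without Spib. Fcer2a, whose regulatory sequence drives Cre, was 286 and 298 CPM in PU.1 cKO against 258 and 350 CPM in DKO (log2 fold change 0.06, SE 0.17, adjusted p = 0.93), and controls held 1023 and 1065 CPM.

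The libraries carried the markers of B cells. All 9 B cell markers were among the 12251 genes, and their summed level was 6624 and 6117 CPM in PU.1 cKO against 5835 and 4508 CPM in DKO. Ms4a1, which encodes CD20, was the DE gene among them. T cell, macrophage and NK cell lists had 3 members each and pDC markers 7, of 11, 12, 7 and 10 genes listed. In PU.1 cKO and then DKO libraries, levels summed over the 5, 3, 4 and 8 genes of these lists tested in the 8 libraries were 100.3, 102.5, 149.8 and 122.1 CPM for T cell, 10.4, 9.0, 11.4 and 8.6 CPM for macrophage, 13.3, 13.8, 24.3 and 22.1 CPM for NK cell and 354.5, 465.3, 624.9 and 664.1 CPM for pDC genes. Of these lists, pDC markers had 1 gene higher (Ly6d) and 1 lower (Pacsin1), and the others had none by edgeR, with 1, 2 and 2 genes at an unadjusted p under 0.05, and with 0, 1 and 0 DE by DESeq2 and 0, 0 and 1 by voom for T cell, macrophage and NK cell lists. The part of such cells in the results below was not tested. The macrophage markers C1qa, C1qb, C1qc, Cd14 and Csf1r had 0 counts in every one of the 8 libraries, and Ncr1 of NK cells likewise. Markers of dendritic cells did differ and are given with the chemokines below.

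Between the genotypes 509 genes were DE, 276 higher and 233 lower in DKO. Over all 12721 genes tested in the 8 libraries, 4.06% were DE (2.23% higher and 1.83% lower). Counts of DE genes in the gene lists below are to be read against these shares. The 2 groups did not overlap in any of the 509, and they did not overlap in 5563 of all 12251 genes. Of the 509, 348 differed by more than 2-fold, and 49 had passed the 0.5 CPM filter through one group alone. The median log2 fold change over all 12251 genes was 0.0099. At an unadjusted p under 0.05, 1566 genes differed. The counts depended on single libraries, with 242 DE genes without PU.1 cKO replicate 1, 198 without PU.1 cKO replicate 2 (66 higher and 132 lower), 222 without DKO replicate 2 and 438 without DKO replicate 1.

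**Figure D1:**
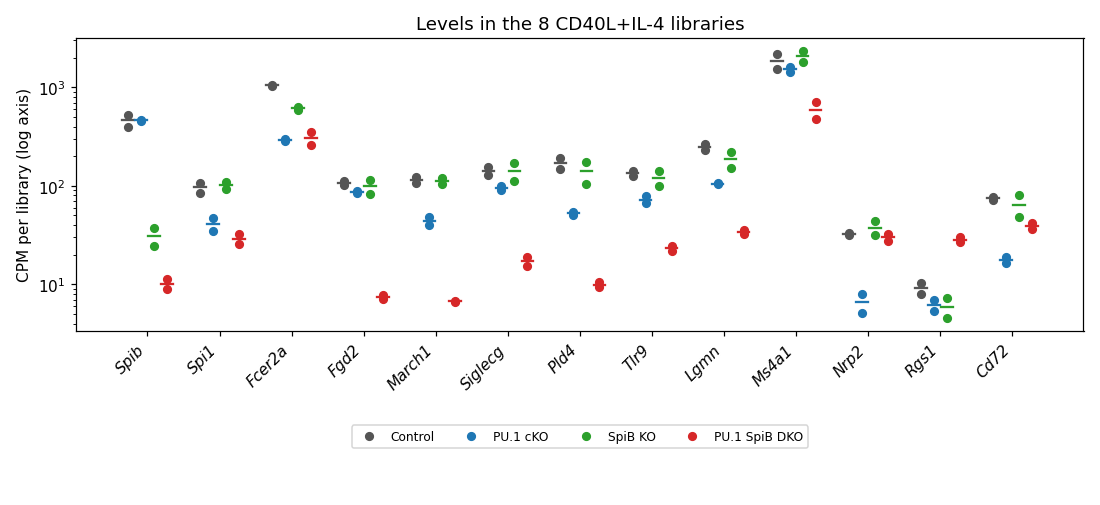
TMM-scaled CPM (log axis) of 13 genes in each of the 8 CD40L+IL-4 libraries, with 1 point per library and a bar at the mean of 2 libraries. DKO libraries lie below all others for Fgd2 (7.88 and 7.15 CPM), March1, Siglecg, Pld4, Tlr9, Lgmn and Ms4a1, while for Nrp2 and Cd72 the PU.1 cKO libraries lie below all others.

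Fgd2, March1, Pld4 and Lifr were among the genes with large falls. Fgd2, a guanine nucleotide exchange factor for CDC42 that is expressed in antigen-presenting cells, was 87.7 and 83.8 CPM in PU.1 cKO against 7.88 and 7.15 CPM in DKO (log2 fold change -3.51, SE 0.20, adjusted p = 4.7e-06). March1, a ubiquitin ligase that lowers MHC class II and CD86 at the surface, was 48.4 and 39.9 CPM against 6.80 and 6.67 CPM (-2.71, SE 0.19, adjusted p = 1.7e-05). Pld4, an endolysosomal exonuclease that degrades single-stranded DNA, was 54.6 and 50.3 CPM against 10.5 and 9.43 CPM (-2.40, SE 0.26, adjusted p = 0.00067). In these genes the DKO libraries were the lowest of the 8. Control and then SpiB KO libraries held 102, 111, 115 and 82.9 CPM of Fgd2, 107, 123, 121 and 103 CPM of March1 and 148, 189, 176 and 105 CPM of Pld4. Lifr, a receptor chain for leukemia inhibitory factor, was 28.1 and 18.9 CPM against 1.94 and 0.953 CPM (-4.01, SE 0.44), with 49.5 and 57.4 CPM in controls and 51.7 and 25.6 CPM in SpiB KO. All 4 calls were kept with each of the 8 libraries left out in turn.

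The start sites of some of these genes hold the letters of a consensus PU.1 site. Promoters were taken from RefSeq (GRCm38.p6) as 300 bases, from 250 before to 50 after the annotated start, and are shown for Fgd2, Pld4 and Tlr9 because the letters lie just downstream of the start in each. Capitals mark GAGGAAGT on either strand, an 8-letter form of the site that contains the 6 letters GAGGAA.
Fgd2, chr17:29360664-29360963, plus strand: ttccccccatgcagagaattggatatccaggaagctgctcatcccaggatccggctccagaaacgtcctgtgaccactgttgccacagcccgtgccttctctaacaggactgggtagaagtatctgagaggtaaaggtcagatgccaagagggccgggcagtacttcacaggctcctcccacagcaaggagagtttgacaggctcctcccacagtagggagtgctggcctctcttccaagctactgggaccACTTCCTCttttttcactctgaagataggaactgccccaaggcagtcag
Pld4, chr12:112760405-112760704, plus strand: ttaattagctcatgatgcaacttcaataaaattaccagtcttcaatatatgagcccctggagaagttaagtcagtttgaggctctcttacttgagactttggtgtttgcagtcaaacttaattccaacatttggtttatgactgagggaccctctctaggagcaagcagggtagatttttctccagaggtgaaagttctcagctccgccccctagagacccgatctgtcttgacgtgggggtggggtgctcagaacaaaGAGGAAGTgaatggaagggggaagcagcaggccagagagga
Tlr9, chr9:106222348-106222647, plus strand: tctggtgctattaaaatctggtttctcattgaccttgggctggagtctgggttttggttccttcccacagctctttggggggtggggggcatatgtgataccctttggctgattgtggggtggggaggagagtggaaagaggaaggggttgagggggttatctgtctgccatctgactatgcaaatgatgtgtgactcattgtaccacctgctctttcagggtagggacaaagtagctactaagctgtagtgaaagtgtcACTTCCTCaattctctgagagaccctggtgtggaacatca
The letters began 1 base past the annotated start in Fgd2, 9 in Pld4 and 10 in Tlr9, on the sense strand in Pld4 and as the reverse complement in Fgd2 and Tlr9. Promoters were found for 9287 of the 12251 genes. GAGGAAGT occurred in 15 of 238 promoters (6.3%) of genes lower in DKO, 13 of 282 (4.61%) of genes higher in DKO and 380 of 11773 (3.23%) of all these genes. The shorter GAGGAA occurred in 30.67%, 32.62% and 26.4% of the same promoters. A match describes letters in a window and not binding, and genes with several starts count once for each distinct promoter.

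Of the 10 Toll-like receptors and partners, which sense microbial products, 4 were lower in DKO (Tlr9, Tlr4, Ly86 and Unc93b1), 0 were higher and 6 were not DE, and 4 of the 10 log2 fold changes were above 0. They belong to a list of 26 immune sensors, of which 6 were lower and 2 higher (median log2 fold change 0.05). Without either PU.1 cKO library, or without DKO replicate 2, the 26 genes held 1 lower and 1 higher DE gene. Tlr9, the sensor of unmethylated CpG DNA, was 78.0 and 67.0 CPM in PU.1 cKO against 24.7 and 21.6 CPM in DKO (log2 fold change -1.64, SE 0.20, adjusted p = 0.0016). Tlr4, the sensor of LPS, was 18.8 and 18.1 CPM against 10.8 and 8.01 CPM (-0.97, SE 0.21, adjusted p = 0.049). Tlr9 kept its call with any 1 library left out, and Tlr4 lost it without either PU.1 cKO library or without DKO replicate 2. Unc93b1, which escorts nucleic acid-sensing receptors to endolysosomes, was 376 and 346 CPM against 242 and 206 CPM (-0.69, adjusted p = 0.09). Cnpy3, a chaperone for these receptors, was 108 and 105 CPM against 56.3 and 55.5 CPM (-0.93, adjusted p = 0.021). Ly86, the partner of the receptor-like RP105, was 115 and 121 CPM against 71.2 and 69.5 CPM (-0.74, adjusted p = 0.076).

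Endolysosomal genes went both ways. In a list of 31 endolysosomal genes drawn up after the values had been seen, 9 were lower, 1, Asah1, was higher and 21 were not DE, and the median log2 fold change was -0.03. Without either PU.1 cKO library, or without DKO replicate 2, 6 were lower and 0 higher. The lower genes were Pld4, Lgmn, Tlr9, Hpse, Naaa, Cnpy3, Ifi30, Ctso and Unc93b1. Lgmn, the asparaginyl endopeptidase legumain, was 107 and 104 CPM against 35.3 and 32.4 CPM (-1.64, SE 0.19, adjusted p = 0.0013). Ifi30, a thiol reductase that unfolds antigen for loading, was 1354 and 1444 CPM against 766 and 716 CPM (-0.92, SE 0.21, adjusted p = 0.058). The calls of Ifi30, Unc93b1, Ctso and Ly86 were lost without PU.1 cKO replicate 2, among other libraries. Stx7, a syntaxin of late endosome fusion outside the list, was 94.5 and 97.8 CPM against 37.7 and 42.3 CPM (-1.27, SE 0.16, adjusted p = 0.0023).

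Among BCR signalling genes, 3 of 10 kinases and adaptors were lower and 3 inhibitory or co-receptor genes higher. Of 42 members of this list, 6 were lower and 3 higher, and the median was -0.27 against 0.0099 over all genes. The counts were 2 lower and 2 higher without PU.1 cKO replicate 1, and 3 and 3 without DKO replicate 2. Siglecg, an inhibitory lectin of the BCR, was 98.7 and 90.7 CPM in PU.1 cKO against 15.4 and 19.2 CPM in DKO (log2 fold change -2.45, SE 0.23, adjusted p = 0.00019). Siglecg lies 1108 kb from Spib. Among kinases and adaptors, Syk was 165 and 116 CPM against 80.7 and 59.8 CPM (-0.998, SE 0.24, adjusted p = 0.063). Btk was 113 and 102 CPM against 73.0 and 65.3 CPM (-0.63, SE 0.16, adjusted p = 0.093). The scaffold Bank1 was 342 and 254 CPM against 166 and 130 CPM (-1.01, SE 0.21, adjusted p = 0.04). Pik3cg, the p110 gamma subunit of PI3K, was 145 and 90.4 CPM against 45.3 and 31.6 CPM (-1.61, SE 0.28, adjusted p = 0.016). Rasgrp1, which activates RAS, was 98.2 and 65.6 CPM against 31.2 and 29.7 CPM (-1.42, SE 0.33, adjusted p = 0.059). The groups did not overlap for these genes, which holds for all 509 DE genes and for 5563 of all 12251 genes. The calls of Syk, Bank1, Btk and Rasgrp1 were lost without PU.1 cKO replicate 1 and without DKO replicate 2, whereas those of Siglecg and Pik3cg were kept in every such fit.

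Some members of the same list rose from a low level in PU.1 cKO cells. Cd72, an inhibitory co-receptor, was 16.5 and 18.8 CPM in PU.1 cKO libraries, 42.3 and 36.1 CPM in DKO and 71.4 and 77.5 CPM in controls (log2 fold change 1.14, SE 0.22, adjusted p = 0.03), a call lost without PU.1 cKO replicate 1. Cr2, the complement receptor CD21, was 5.91 and 7.80 CPM against 18.8 and 36.2 CPM (1.97, SE 0.31, adjusted p = 0.0087). Lilrb4, an inhibitory receptor with close paralogs that can share reads, was 0.301 and 0.378 CPM against 4.64 and 7.53 CPM (4.05, SE 0.42, adjusted p = 0.00048), and it passed the 0.5 CPM filter through DKO alone. Its control level was 8.60 and 9.85 CPM, so the PU.1 cKO libraries were the lowest of the 8.

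Most transcription factors of the B cell programme did not pass the test. Of 16 such regulators 3 were lower and 0 higher, with a median of -0.09, and 1 was lower without PU.1 cKO replicate 2. Bach2, a repressor that holds back plasma cell differentiation, was 148 and 115 CPM in PU.1 cKO against 78.5 and 64.6 CPM in DKO (log2 fold change -0.88, SE 0.20, adjusted p = 0.052). Klf2, a regulator of B cell trafficking, was 621 and 628 CPM against 406 and 260 CPM (-0.91, SE 0.22, adjusted p = 0.07). Mef2b, a germinal center regulator, was 8.62 and 8.98 CPM against 5.50 and 4.38 CPM (-0.84, SE 0.22, adjusted p = 0.095), with controls at 30.5 and 33.6 CPM. Each of these 3 calls was lost without PU.1 cKO replicate 1 and without DKO replicate 2, which left 0 DE genes in the list. Pax5 (-0.02), Irf4 (-0.03), Irf8 (0.22), Bcl6 (-0.14) and Tcf3 (0.04) did not pass the test, and the signs of all but Irf8 turned in at least 1 alternative. In the ETS family 1 of 14 members (7.14%) was DE, against 4.06% of all genes tested, so the count says little about the family. That gene, Elk3, was 22.9 and 25.7 CPM against 40.3 and 36.0 CPM (0.65, SE 0.18, adjusted p = 0.12). It lost that call without any 1 of the 4 compared libraries.

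No plasma cell, class switch, cell cycle or heat shock gene was DE by edgeR, and none of the genes for folding and export of protein from the endoplasmic reticulum. These lists had 17, 13, 31, 8 and 57 members, of which 7, 0, 1, 0 and 7 had an unadjusted p under 0.05. Over all 12251 genes, 1566 had an unadjusted p under 0.05 by edgeR, and 4.06% of the 12721 genes tested were DE. At that share a short list can hold no DE gene without differing from other genes. The median of the plasma cell list was 0.23, and 12 of its 17 log2 fold changes were above 0. Cells had been sorted as CD138- before RNA was taken. DESeq2 called 0 in each list, and voom called 1 plasma cell gene lower and 0 in the others. The median of the endoplasmic reticulum list was 0.24, and 51 of its 57 log2 fold changes were above 0. Prdm1, which encodes BLIMP1, was 48.8 and 52.9 CPM in PU.1 cKO against 45.4 and 50.6 CPM in DKO (log2 fold change -0.09, SE 0.16, adjusted p = 0.87), and controls held 8.34 and 9.12 CPM. Xbp1, a regulator of the secretory programme, was 1113 and 1300 CPM against 1643 and 1797 CPM (0.51, SE 0.18, adjusted p = 0.25). The Xbp1 groups did not overlap, and the difference did not pass the adjusted threshold. Mki67 varied by library within each genotype, from 75.6 to 199 CPM in the PU.1 cKO and from 85.7 to 223 CPM in DKO. It was higher in replicate 1 than in replicate 2 of every genotype, with 394 and 123 CPM in controls and 264 and 88.7 CPM in SpiB KO.

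Immunoglobulin constant genes included 3 DE genes of 12, each higher in DKO. Ighg3 was 0.301 and 0.329 CPM in PU.1 cKO libraries, 10.1 and 7.34 CPM in DKO and 4.30 and 4.82 CPM in controls (log2 fold change 4.72, SE 0.38, adjusted p = 6.1e-05), and of the 4 compared libraries it passed the 0.5 CPM filter through DKO alone. Ighe, a constant gene to which IL-4 directs switching, was 8.92 and 15.7 CPM against 33.6 and 96.4 CPM (2.35, SE 0.51, adjusted p = 0.047), and 59.9 and 46.7 CPM in controls. The call of Ighe was lost without PU.1 cKO replicate 1 or DKO replicate 2. Igha stayed below 2 CPM throughout and lost its call without any 1 of 6 libraries, the 4 compared among them. Of 10 cytokine receptors, Il2ra and Il5ra were higher and Il6ra lower, and Il6ra lost its call without either control library, either PU.1 cKO library or DKO replicate 2. Il2ra, the high-affinity chain of the IL-2 receptor, was 15.3 and 16.6 CPM against 41.3 and 42.9 CPM (1.39, SE 0.19, adjusted p = 0.0032), and Il5ra was 38.7 and 35.4 CPM against 54.2 and 81.8 CPM (0.88, SE 0.22, adjusted p = 0.088). Tnfrsf13c, the BAFF receptor, was 251 and 230 CPM against 158 and 118 CPM (-0.80, SE 0.19, adjusted p = 0.071). Both Il5ra and Tnfrsf13c lost their calls when either PU.1 cKO library or DKO replicate 2 was left out.

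Of 14 homing receptors 3 were lower, Ccr6 and Itgb7 among them, 2 were higher (S1pr2 and Itgb1) and 9 were not DE. Without any 1 of the 4 compared libraries 0 were higher and 2 to 5 lower. Ccr6, a chemokine receptor for CCL20, was 37.0 and 29.7 CPM in PU.1 cKO against 12.6 and 14.1 CPM in DKO (log2 fold change -1.31, SE 0.22, adjusted p = 0.012), with controls at 122 and 111 CPM. S1pr2, which confines germinal center B cells, was 3.01 and 3.65 CPM against 8.74 and 7.72 CPM (1.28, SE 0.29, adjusted p = 0.058), a call lost without any 1 of the 4 compared libraries. Nrp2, a neuropilin, was 8.02 and 5.10 CPM against 32.5 and 27.4 CPM (2.26, SE 0.24, adjusted p = 0.00071), close to the 31.8 and 33.3 CPM of controls. Rgs1, which damps chemokine receptor signals, was 5.41 and 6.99 CPM against 26.7 and 30.0 CPM (2.16, SE 0.26, adjusted p = 0.0014), above every other library of the culture.

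Interferon-stimulated genes were taken from a list of 37, also drawn up after the values had been seen, so its direction is no independent evidence. Of its 28 members 12 were lower in DKO, 0 were higher and 16 were not DE. The median was -0.61, and 5 of the 28 log2 fold changes were above 0. The summed level of the 32 genes of the list tested in the 8 libraries was 2352 and 1968 CPM in PU.1 cKO libraries, 1379 and 1164 CPM in DKO and 1978 and 2011 CPM in controls. Without PU.1 cKO replicate 1 the count was 6 lower and 1 higher, and without DKO replicate 2 it was 5 and 0. Pml, the organiser of nuclear bodies, was 730 and 612 CPM against 317 and 243 CPM (log2 fold change -1.26, SE 0.17, adjusted p = 0.0036). Oas3, which makes 2'-5' oligoadenylates, was 3.71 and 4.10 CPM against 0.432 and 0.477 CPM (-3.09, SE 0.40, adjusted p = 0.0026), and it passed the 0.5 CPM filter through PU.1 cKO alone. Slfn5 was 118 and 59.4 CPM against 17.5 and 5.43 CPM (-2.95, SE 0.50, adjusted p = 0.013). The calls of Pml, Oas3, Slfn1 and Slfn5 were kept with each library left out, and those of Oas1a, Gbp3, Samd9l, Trim25 and Slfn2 were lost in at least 1 such fit.

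Of 13 chemokine and cytokine genes 8 were higher in DKO, 0 were lower and 5 were not DE, with a median log2 fold change of 1.38. Without PU.1 cKO replicate 2, which had the deepest sequencing, 0 of them were DE by edgeR, while 9 had an unadjusted p under 0.05 and the median was 1.28. Without any other 1 of the 4 compared libraries the count was 4 to 5. Ccl22 was 47.1 and 25.5 CPM in PU.1 cKO against 193 and 131 CPM in DKO (2.18, SE 0.54, adjusted p = 0.082), while the 2 control libraries held 73.4 and 182 CPM. Ccl17, which shares the receptor CCR4 with Ccl22, was 1.60 and 0.790 CPM against 14.7 and 8.10 CPM (3.44, SE 0.64, adjusted p = 0.022). Il10 was 1.20 and 0.724 CPM against 3.56 and 4.19 CPM (2.11, SE 0.49, adjusted p = 0.072). A list of 14 dendritic cell markers, added after these values were seen and sharing 2 genes with the cytokine list, had 9 of 11 members higher in DKO (median 1.66). Without PU.1 cKO replicate 2, 0 were DE and 8 had an unadjusted p under 0.05, and the count was 2 without DKO replicate 1, 4 without PU.1 cKO replicate 1 and 5 without DKO replicate 2. Its summed level was 307 and 217 CPM in PU.1 cKO libraries, 795 and 601 CPM in DKO, 389 and 600 CPM in controls and 490 and 240 CPM in SpiB KO. Fscn1, an actin bundler of mature dendritic cells, followed the same libraries at 34.2 and 14.9 against 161 and 115 CPM. Batf3, which passed the filter through DKO alone, stood at 0.100 and 0.148 against 2.16 and 1.24 CPM, and Zbtb46 at 1.30 and 1.88 against 3.99 and 3.81 CPM. Itgax was at or below 1.40 CPM in all 4 libraries, Clec9a had 0 counts in them, and Cd209a had 0 counts in both DKO libraries and 19 in PU.1 cKO replicate 2. The calls of Ccl17, Ccl22, Il10, Fscn1 and Batf3 were lost without PU.1 cKO replicate 2. The part of dendritic cells in these rises was not tested.

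**Figure D2:**
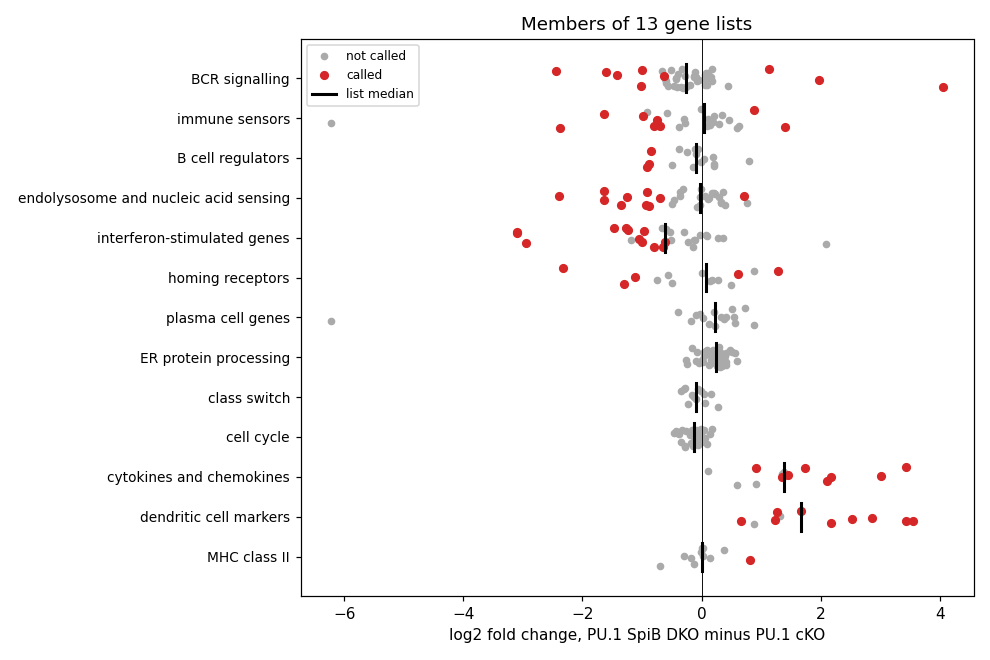
Log2 fold change, PU.1 SpiB DKO minus PU.1 cKO (horizontal axis), of the members of 13 gene lists, with 1 point per gene, DE genes in red and the list median as a black bar. Interferon-stimulated genes lie mostly below 0 (median -0.61), cytokines and dendritic cell markers above 0 (medians 1.38 and 1.66), and the 57 endoplasmic reticulum genes hold no DE gene. The interferon, dendritic cell and endolysosomal lists were drawn up after the values had been seen, so their direction is no independent evidence.

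Survival genes of the BCL2 family gave 4 higher and 1 lower of 13, and 1 and 0 without PU.1 cKO replicate 2. Bcl2a1b was 3.21 and 2.80 CPM in PU.1 cKO libraries, 11.9 and 7.72 CPM in DKO and 42.2 and 52.7 CPM in controls (log2 fold change 1.73, SE 0.25, adjusted p = 0.0049). Its near-identical copies Bcl2a1a, which passed the filter through DKO alone, and Bcl2a1d also rose, and reads shared between the copies leave each value uncertain. The pro-apoptotic Bcl2l11 was 246 and 186 CPM against 157 and 95.0 CPM (-0.78, SE 0.22, adjusted p = 0.13), a call lost when any of 5 libraries was left out. Of 11 costimulation and activation genes, Cd69 and Icosl were higher and Cd38 lower. The counts were 0 higher and 0 lower without PU.1 cKO replicate 1, and 1 and 0 without PU.1 cKO replicate 2 or DKO replicate 2. MHC class II had 1 DE gene of 11 (9.09%, against 4.06% of all genes tested), and the list median was 0.01. That gene, H2-DMb1, was 67.5 and 62.8 CPM against 129 and 99.3 CPM (0.81, SE 0.20, adjusted p = 0.075). Its call was lost without either PU.1 cKO library or without DKO replicate 1.

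Several of the largest falls were in genes present almost only in PU.1 cKO libraries. The transcript counted as H2-Ea-ps was 1664 and 2765 CPM in PU.1 cKO against 0.540 and 3.34 CPM in DKO, and at most 0.296 CPM in control and SpiB KO libraries. C57BL/6 mice, the strain in the labels, are known not to transcribe this class II gene. H2-Q10 (79.5 and 182 CPM against 1.29 and 0.858 CPM) and H2-Q2 (72.9 and 113 CPM against 1.29 and 0.667 CPM) behaved alike. Of 15 MHC class I genes, 6 were lower and 2 higher (H2-Q7 and H2-K1), with a median of 0.03. Without PU.1 cKO replicate 2, 5 were lower and 0 higher, and without any other 1 of the compared libraries 5 to 6 were lower and 1 higher, as H2-K1 lost its call in each of these fits. In the span of the H2 genes from H2-K2 to H2-M2 (chromosome 17, 33974659 to 37483554, GRCm38), 19 of 116 members (16.4%) were DE, 15 of them lower, against 4.41% of 521 members elsewhere on the chromosome. Genes of this span are near-identical to one another in places, and how their reads were split is uncertain. Outside it, Gdpd3, which passed the filter through PU.1 cKO alone, had 30.5 CPM in each PU.1 cKO library and 0 counts in both DKO libraries, at least 100.1-fold lower by a floor of 3 counts per library. H2-Ea-ps differed in the same direction in naive cells (-11.90) and after LPS+IL-4 (-14.81). Whether the mouse lines differed at these genes for reasons other than SpiB was not tested.

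DE genes were also frequent around Spib itself. Within 5 Mb of the gene (chromosome 7, 39525995 to 49532087, Spib left out), 22 of 106 members (20.8%) were DE, 13 higher and 9 lower. The share was 12.0% of 25 members at 5 to 10 Mb and 4.91% of 163 at 10 to 20 Mb. Around Spi1 2 of 40 members were DE, and around Fcer2a 1 of 25. Csrp3, a muscle LIM protein 4298 kb away, was 0.100 and 0.822 CPM in PU.1 cKO libraries, 273 and 330 CPM in DKO and 87.8 and 101 CPM in SpiB KO (log2 fold change 8.79, SE 0.36, adjusted p = 7.3e-07). Ftl1, which encodes the ferritin light chain and has processed copies, was 296 and 507 CPM against 30.0 and 22.97 CPM, with 13.1 and 7.28 CPM in SpiB KO. Htatip2, 5227 kb away, was 21.95 and 26.7 CPM in PU.1 cKO libraries, 0.108 and 0.286 CPM in DKO, 28.5 and 29.7 CPM in controls and 0 in both SpiB KO libraries, and of the 4 compared it passed the filter through PU.1 cKO alone. Pold1, which begins 1 kb from Spib, was lower by 0.90 (log2). For Csrp3, Ftl1 and Htatip2 the SpiB KO libraries did not overlap the control libraries and lay on the side of the DKO libraries. Siglecg, in the same window, was 169 and 111 CPM in SpiB KO and 130 and 154 CPM in controls. Without the Spib window and the H2 span, 467 genes were DE.

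**Figure D3:**
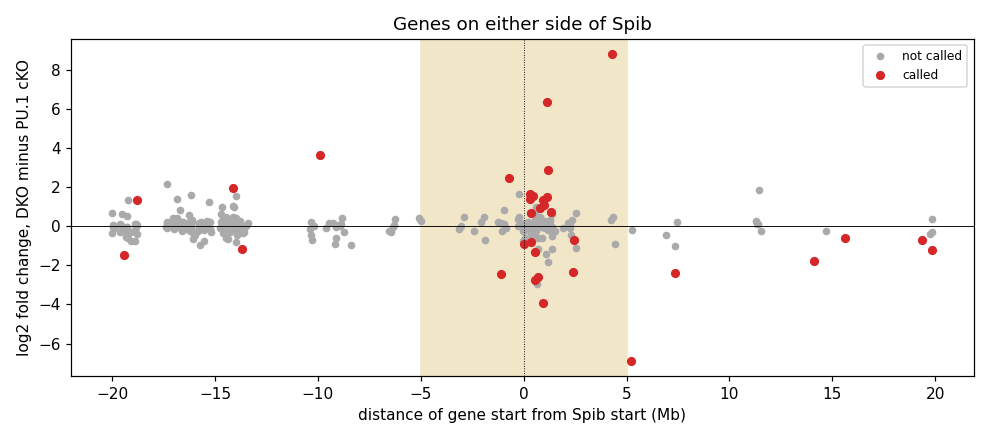
Log2 fold change, DKO minus PU.1 cKO (vertical axis), of members on chromosome 7 by distance of the gene start from the Spib start in Mb (horizontal axis), with DE genes in red, Spib left out and the 5 Mb window shaded. Of the 106 genes of the window 22 are DE, in both directions, from Csrp3 at 8.79 to Ftl1 at -3.93.

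Whether SpiB loss did more in the absence of PU.1 was asked by an interaction term, the change from PU.1 cKO to DKO minus the change from control to SpiB KO. Control cells carried Cre without floxed Spi1, and SpiB KO cells carried floxed Spi1 without Cre. The interaction cannot separate these differences from SpiB loss. SpiB KO against control gave 17 DE genes (0.134%), and 149 genes (1.17%) passed the interaction test. The 149 include transcripts that were high in PU.1 cKO libraries alone, such as H2-K2, H2-Q2, Rps15a-ps8 and Gdpd3. Their interaction adjusted p was 0.0047, 0.0049, 0.0054 and 0.011 by edgeR. Leaving out a library gave 48 (control replicate 2), 63 (DKO replicate 2), 70 (control replicate 1), 72 (PU.1 cKO replicate 1), 90 (PU.1 cKO replicate 2), 94 (SpiB KO replicate 1), 175 (SpiB KO replicate 2) and 260 genes (DKO replicate 1). Of the 509 DE genes, 127 had an interaction at an adjusted p under 0.15, 72 lower and 55 higher in DKO. Fgd2 changed by -0.11 with PU.1 present and by -3.51 without it, an interaction of -3.40 (adjusted p = 0.00072). The interaction was -2.67 for March1 (adjusted p = 0.0022), -2.43 for Siglecg (adjusted p = 0.0054) and -1.47 for Tlr9 (adjusted p = 0.056). The order of the 8 libraries is given as a description, since DE genes were chosen on the difference of 2 of the groups. In 163 of the 233 lower genes (70%) the DKO libraries lay below all 6 others, against 10.9% of all 12251 genes, and in 75 (32.2%) the PU.1 cKO libraries lay above all 6, against 4.78%. In 163 of the 276 higher genes (59.1%) the DKO libraries lay above all 6 others, against 10.9% of all genes, and in 115 (41.7%) the PU.1 cKO libraries lay below them, against 5.92%. A stepwise order without overlap, from control to PU.1 cKO to DKO, was seen downward for 80 lower genes (34.3%) and upward for 61 higher genes (22.1%), against 5.47% and 5.53% of all genes.

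**Figure D4:**
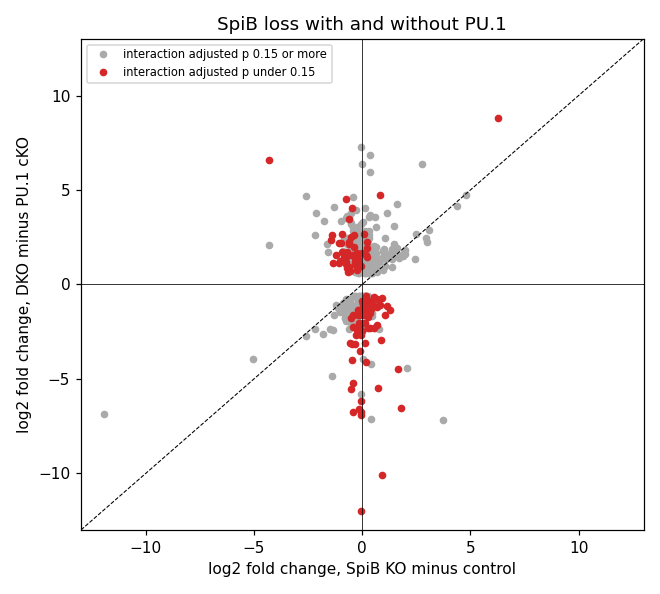
Log2 fold change of SpiB KO minus control (horizontal axis) and of DKO minus PU.1 cKO (vertical axis) for the DE genes other than Spib, with genes of an interaction adjusted p under 0.15 in red and the line of equal change dashed. Most points lie near 0 on the horizontal axis, where the medians are -0.02 for lower and -0.01 for higher genes, and Csrp3 and Htatip2 lie far from it.

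The same genotypes were compared in naive cells and after LPS+IL-4 in a fit of all 24 libraries, in which 7.35% of 13684 genes were DE in CD40L+IL-4, 9.65% after LPS+IL-4 and 12.9% in naive cells. Of the 509 genes, 166 (32.6%) were DE in the same direction after LPS+IL-4 and 184 (36.1%) in naive cells, which were 13.8% and 12.9% of the members DE there. In both were 98 genes, of which 24 lay in the Spib window or the H2 span. Another 27 went the opposite way in each state. The difference between CD40L+IL-4 and LPS+IL-4 passed the test for 9.23% of genes, and that between CD40L+IL-4 and naive cells for 6.56%. The former, 1263 genes, was 417 without DKO replicate 2, 701 without PU.1 cKO replicate 1 and 1902 without DKO replicate 1 of the CD40L+IL-4 culture. The CD40L+IL-4 libraries came in another count table than those of the other states, so state and set cannot be told apart, and the study describes incomplete loss of the floxed Spi1 exon in naive DKO cells.

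The fall of several genes named above was larger after CD40L+IL-4. Fgd2 fell by 3.51 on the log2 scale in this culture, by 0.97 after LPS+IL-4 and by 0.96 in naive cells, with differences of -2.55 (adjusted p = 1.3e-05) and -2.56 (adjusted p = 1.8e-06). Siglecg differed by -1.97 from its change after LPS+IL-4 (adjusted p = 0.0013). Pld4 was higher in naive DKO cells, at 422 and 431 CPM against 151 and 141 CPM in naive PU.1 cKO cells, the opposite direction to the culture (log2 fold change 1.55, adjusted p = 6.8e-05). Hpse, which encodes heparanase, likewise was 82.7 and 83.9 CPM against 20.8 and 18.5 CPM in naive cells and 10.4 and 10.7 against 28.9 and 24.9 CPM after CD40L+IL-4. Klf3 fell by 0.94 here and rose by 0.92 after LPS+IL-4, where it was 46.4 and 41.5 CPM in DKO against 23.8 and 22.6 CPM in PU.1 cKO. Its call in the CD40L+IL-4 culture was lost without PU.1 cKO replicate 1 and without DKO replicate 2. Its log2 fold change there was -1.2 to -0.74 over 18 other fits.

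**Figure D5:**
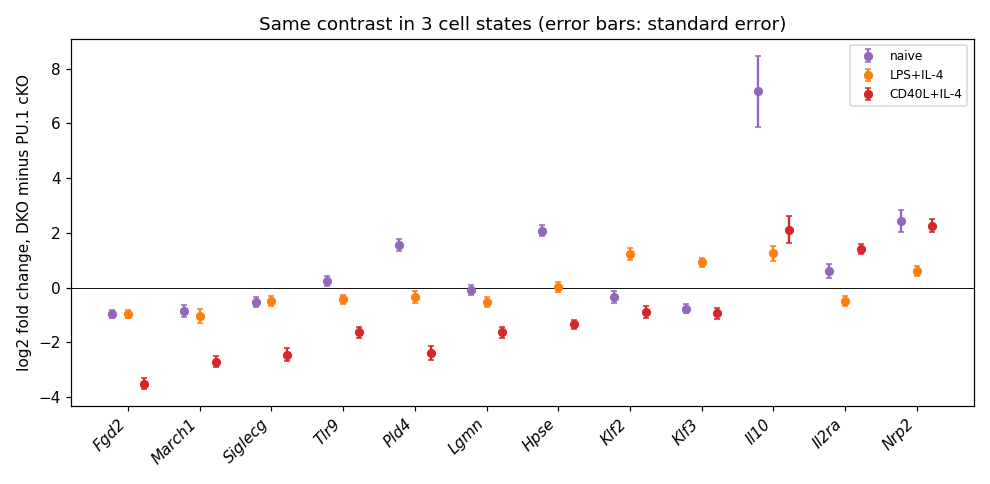
Log2 fold change, DKO minus PU.1 cKO (vertical axis), of 12 genes in naive cells, after LPS+IL-4 and after CD40L+IL-4, as points with the standard error of the fit. Fgd2 lies at -0.96, -0.97 and -3.51 in that order, Pld4 and Hpse lie above 0 in naive cells and below 0 after CD40L+IL-4, and Klf2 and Klf3 lie above 0 after LPS+IL-4 alone.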

How the data were processed

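RNA was sequenced from 24 libraries, 2 per genotype in each of 3 cell states, of which the 8 CD40L+IL-4 libraries were used here and the others for differences between states. The authors aligned reads to GRCm38 with Subread and deposited raw counts per RefSeq gene made with featureCounts from uniquely mapped reads, which can drop or split reads of near-identical genes. They also deposited log2 RPKM values per library, used here only as an alternative threshold. Counts were fitted with edgeR 4.0.16 (TMM, quasi-likelihood) in R 4.3.3 over the 8 libraries, after a filter of 0.5 CPM in 2 libraries, with adjusted p-values over all 12721 genes. Differences between states came from a fit of 24 libraries. Each standard error is a log2 fold change divided by the square root of its F statistic. An exact permutation test of 2 against 2 libraries cannot go below p = 0.333. The 517 entries without a symbol (0.190% of counts) were kept. Positions were from RefSeq.

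The members and gene lists were chosen with earlier results of these data known. Genes were named by rule: Spi1, Spib and Fcer2a, the 10 largest rises and the 10 largest falls among DE genes without overlap and with at least 5 CPM in the higher group, up to 4 DE genes per list by adjusted p (or its first 2 genes), the 6 largest changes near Spib, the 3 smallest adjusted p of each interaction or state test, and list genes that the study names. Others were chosen after their values were seen. The fit was tested on simulated counts. DESeq2 1.42.0 and limma 3.58.1 served as alternatives. The sources do not say that replicate numbers pair libraries, and deviations of same-numbered libraries correlated at -0.07 to 0.27 over all genes tested. Numbers were therefore not treated as pairs. This does not exclude an effect shared by same-numbered libraries, as Mki67 was higher in replicate 1 of every genotype. A fit with a replicate block gave 833 DE genes in place of 509. Some named genes are not reported here.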

Additional observations from a re-analysis of the deposited data

Results flagged for a closer look

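By a test of the difference itself, the change from PU.1 cKO to DKO differed from that from control to SpiB KO in 149 genes (the interaction). It differed between CD40L+IL-4 and LPS+IL-4 in 1263 genes and between CD40L+IL-4 and naive cells in 898. Control and SpiB KO also differ in Cre and in floxed Spi1, and the 149 include transcripts high in PU.1 cKO libraries alone. Among named genes at an adjusted p under 0.001 by edgeR, Fgd2 had an interaction of -3.40 and differed by -2.55 from LPS+IL-4 and by -2.56 from naive cells (log2), and Klf3 differed by -1.87 from LPS+IL-4. The log2 fold change in the culture minus that in naive cells was -3.96 for Pld4, -3.44 for Hpse, -1.89 for Tlr9, -1.33 for Stx7 and -1.26 for Cnpy3. It was -6.93 for Lifr, -2.94 for Lrp8, -1.92 for Siglecg, -5.90 for the endothelial cadherin Cdh5 and -10.53 for Gdpd3. Such a difference can hold a rise in naive DKO cells, as for Pld4 and Hpse above, and need not be a fall in the culture. Lrp8 and Cdh5 were not DE in the culture by the main fit. In 18 other fits Lrp8 was at 0.20 to 0.55 (log2), whereas Cdh5 was at -2.7 to -0.86, below 0 in each. For Spi1 (-1.40), Tcf4 (-1.43) and Pacsin1 (-2.18), naive DKO cells were likewise higher than naive PU.1 cKO cells, by 0.90, 1.03 and 1.38. Fcer2a differed by 2.32, with a log2 fold change of -2.28 in naive cells and 0.06 in the culture.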

How the results depend on the processing

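The 509 DE genes became 998 without a filter on low counts (530 higher, 468 lower), 210 at an adjusted p under 0.05 (97 and 113) and 913 with all 24 libraries in the fit (502 and 411). With a mean log2 RPKM above 0, 179 were higher. With the replicate block the count was 833 (442 and 391), the interaction gave 409 and the difference from LPS+IL-4 gave 2002, and the numbers were not shown to pair the libraries. Leaving out each library in turn gave 198 to 602 DE genes, 66 to 325 higher and 89 to 282 lower. The interaction, 149 genes, gave 289 by DESeq2, 75 by voom, 647 without a filter and 46 at 0.05, and 48 to 260 with a library left out. The difference from LPS+IL-4, 1263 genes, gave 538 at 0.05 and 417 to 1902 with a library left out, and that from naive cells, 898, gave 525 at 0.05. Of 111 named DE genes, 49 were DE in each of up to 18 other fits, 62 lost the call with some library left out (51 of 108 without PU.1 cKO replicate 2) and 0 reversed. Genes without a call changed sign with a library left out, over these ranges (log2): Fcer2a -0.19 to 0.26, Ets2 -0.052 to 0.14, Ung -0.12 to 0.22, H2-Aa -0.10 to 0.13, H2-Ab1 -0.097 to 0.11, Mki67 -0.67 to 1.01, Hspa1b -1.60 to 0.63, Hsph1 -0.20 to 0.49, Rasgrp3 -0.044 to 0.35, Pax5 -0.25 to 0.17, Bcl6 -0.49 to 0.14, Irf4 -0.13 to 0.057 and Tcf3 -0.047 to 0.12. By voom H2-Aa was -0.079, Pax5 0.032 and Irf4 0.035. H2-Ab1 was -0.0052 without a filter and -0.00015 with 24 libraries. The causes were not tested. Higher genes were 54.2% of DE genes, 33.3% without PU.1 cKO replicate 2 and 43.6% without DKO replicate 1. The deep library and the Rn45s share of DKO replicate 1 were tried as alternatives (458 DE genes with the former thinned, 513 with Rn45s removed).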

Other observations

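Gm20746 was 1.80 and 3.34 CPM in PU.1 cKO libraries, 67.7 and 84.8 CPM in DKO and 36.8 and 38.8 CPM in SpiB KO. Slc16a3, a lactate transporter, spread widely within SpiB KO, at 1.87 and 55.9 CPM, and was 24.3 and 37.2 CPM in PU.1 cKO and 2.27 and 1.14 CPM in DKO libraries. The DE call of Slc16a3 was lost without either DKO library, PU.1 cKO replicate 2 or control replicate 2. Its log2 fold change was -4.76 to -3.79 over 18 other fits. The processed pseudogene Rps15a-ps8 was 39.9 and 27.0 CPM in PU.1 cKO libraries and at most 0.734 CPM in the other 6. Of the compared libraries, it passed the 0.5 CPM filter through PU.1 cKO alone. Gm20746 and Rps15a-ps8 were named by the rule of largest changes, and Slc16a3 was picked after its values were seen.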
